A study of Canis lupus familiaris with 15 samples.

Results

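HIF1A, HSP70, HPRT1 and RPL13A, a pair of stress genes and a pair of housekeeping genes, were followed through a custom NanoString panel of dog skin. They are 4 of the 160 panel probes and were chosen by name, through the RefSeq accession of each probe with the version ignored. Skin biopsies of 15 dogs were measured: 7 with discoid lupus erythematosus (DLE), 1 with chronic cutaneous lupus erythematosus and suspected systemic disease (CCLE), 1 with mucocutaneous lupus (MLE), 1 with the bacterial skin infection pyoderma, and 5 healthy dogs sampled at leg margins. The DLE dogs were 1 to 13 years old, the CCLE dog 7, the MLE dog 6 and the pyoderma dog 9 years, and the labels state no age for the healthy dogs. The pyoderma dog, labelled a control as well, was at first deposited under another diagnosis, per the series text. All RNA came from archival fixed biopsies, per the labels' protocols, so the samples mix all cell types of the skin. The labels give no body site for the lesions. The healthy samples are marked as re-used from another series.

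HIF1A encodes the oxygen-regulated subunit of hypoxia-inducible factor 1, which pairs with ARNT and switches on genes of glycolysis and vessel growth. It is regulated mainly through the stability of its protein, which a transcript count does not measure. HSP70 is an inducible chaperone that binds unfolded proteins after heat and other stress. HPRT1 is an enzyme of purine salvage, and RPL13A is a protein of the large ribosomal subunit. Both are in wide use as reference genes, that is, as genes whose counts serve to scale other genes between samples. The RPL13A and HSP70 values carry a limit, because ribosomal protein genes have processed copies and the HSP70 family has close relatives, and the files do not say which of these transcripts a probe can bind.

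Panel counts summed to between 495839 and 587169 in the DLE dogs, and to 501396, 654993 and 430515 in the CCLE, MLE and pyoderma dogs. In healthy dogs 1 to 5 the sums were 209889, 370814, 675018, 336931 and 307735. Every healthy dog except dog 3 thus lay below all DLE dogs. TMM factors, which correct for a few genes taking a large share of a sample's counts, lay between 0.445 and 1.46, the lowest in DLE dog 3. The 6 spike-in control rows that were high differed completely between 9 dogs (all DLE dogs, the MLE and the pyoderma dog) and 6 dogs (all healthy dogs and the CCLE dog), here called control sets A and B. Control set and diagnosis therefore cannot be told apart in the comparison of DLE with healthy skin. Only the CCLE dog allows a lesion to be set against healthy skin within 1 control set. In both comparisons all healthy samples are re-used leg margins and the lesion sites are not stated. Body site and source series therefore cannot be told apart from diagnosis. In bulk skin, fewer cells of a type and less RNA per cell cannot be told apart either.

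All 4 probes were counted well above background in every dog. Background was set per dog from the 8 control rows that stayed low, at their mean with 2 SD added, which gave limits of 13.6 to 30.0 counts. RPL13A ranked between 2 and 13 among the 160 probes of a dog, HIF1A between 11 and 21, HSP70 between 16 and 38 and HPRT1 between 32 and 48. The lowest count of HPRT1, 336 in DLE dog 3, was still 17.5 times that dog's limit and had an exact 95% Poisson interval of 301 to 374, which covers counting error only. In deposited counts RPL13A ranged from 10483 to 19895 (median 14537) in DLE dogs and from 16503 to 42227 (median 26144) in healthy dogs. HIF1A ranged from 2467 to 7733 (median 4729) in DLE dogs and from 1564 to 4634 (median 3313) in healthy dogs. The 2 groups overlapped in the deposited counts of every one of the 4 genes.

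**Figure D1:**
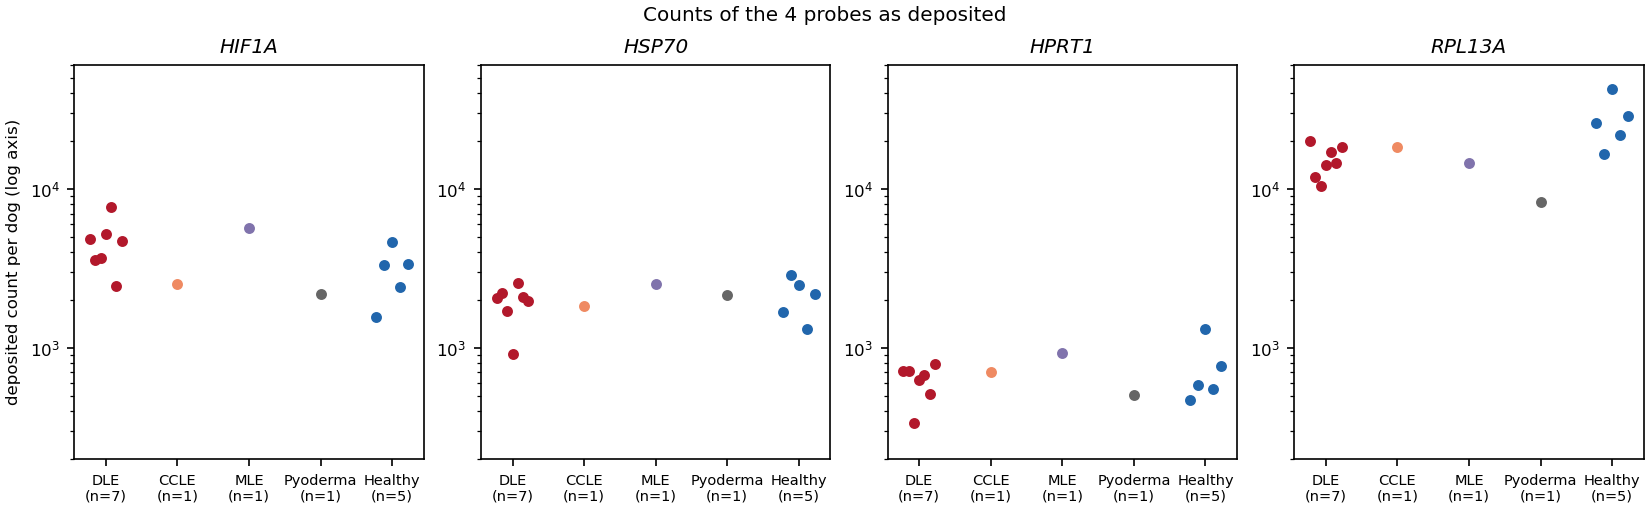
Deposited counts of the 4 probes on a log axis, 1 point per dog, for the DLE, CCLE, MLE, pyoderma and healthy dogs. RPL13A lies highest and HPRT1 lowest in each dog, and the pyoderma dog has the lowest RPL13A count, 8285.

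DLE skin was first set against healthy skin, a comparison in which the control set differs along with the diagnosis. Of the 4 genes, RPL13A was called lower in DLE dogs and the other 3 did not pass the test. RPL13A stood 2.03-fold lower in DLE than in healthy dogs, HPRT1 averaged 614 ± 80.4 normalised counts in DLE dogs and 811 ± 134 in healthy dogs (SD, n = 7 and 5), and neither HIF1A nor HSP70 differed beyond its spread between dogs. Across the panel, 97 of 157 probes tested were called, 61.8%, with 24.8% called lower and 36.9% called higher in DLE dogs (edgeR's quasi-likelihood test, adjusted p under 0.05). The count of 1 called in 4 is thus below the share over all probes, and the median over all probes of the absolute log2 change was 1.26. Normalised counts below are counts divided by the TMM-scaled sum over the panel and set to a common size.

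**Figure D2:**
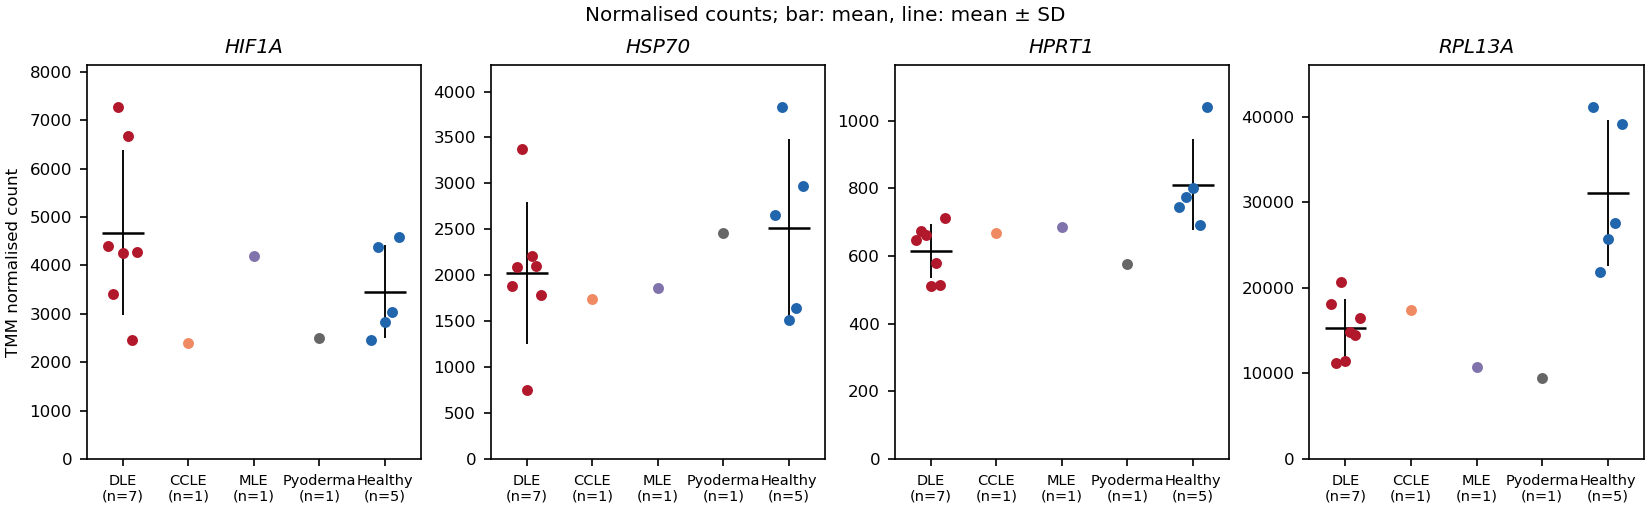
TMM normalised counts of the 4 genes, 1 point per dog, with the mean and SD of the DLE (n = 7) and healthy (n = 5) dogs as bar and line. All 7 DLE dogs lie below all 5 healthy dogs for RPL13A, and the groups overlap for the other 3 genes.

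RPL13A had a lowest, median and highest value of 11246, 14840 and 20668 normalised counts in the DLE dogs, against 41117, 21824, 25724, 27574 and 39213 in healthy dogs 1 to 5. Every DLE dog lay below every healthy dog, as for 12.1% of probes. The means were 15334 ± 3412 in 7 DLE dogs and 31090 ± 8566 in 5 healthy dogs (SD), so that log2 DLE over healthy was -1.02 ± 0.26 (SE; edgeR adjusted p = 0.00374, with 7.21e-09 to 0.950 over the 24 alternatives). The CCLE dog (17434), the MLE dog (10736) and the pyoderma dog (9428) also lay below all healthy dogs, so that all 10 lesional dogs did. Within control set B the CCLE dog was 0.79 lower on the log2 scale than the healthy mean, and within set A the 8 lupus dogs were 0.61 higher than the pyoderma dog. A fit with the control set as a block needed other groups, the 9 lupus dogs (DLE, MLE and CCLE) against the other 6 (pyoderma and healthy), so that it rests on the pyoderma dog in set A and the CCLE dog in set B. In that fit the change was -0.08 (edgeR adjusted p = 0.950), and the block and the change of groups cannot be told apart. The call also ended with no scaling (-0.84, edgeR adjusted p = 0.0538) and with spike-in scaling (-0.64, edgeR adjusted p = 0.288). Spike-in scaling divides DLE and healthy dogs by different control rows, since the sets share none of the high ones. The 6 high rows had medians of 81 to 51830 in set A and 106 to 64230.5 in set B. Whether they stand for equal amounts was not tested, so the spike-in values for all 4 genes may compare unlike scales.

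HPRT1 had a lowest, median and highest value of 510, 646 and 712 normalised counts in DLE dogs, against 744, 776, 802, 693 and 1040 in healthy dogs 1 to 5. In 6 of 7 DLE dogs HPRT1 lay below all healthy dogs, and DLE dog 7 alone lay above healthy dog 4. The log2 change was -0.40 ± 0.18 (SE, 95% interval -0.79 to -0.01). It did not pass after adjustment (edgeR's quasi-likelihood test, adjusted p = 0.0709, with 5.30e-05 to 0.896 over the 24 alternatives). The call was reached in the exact permutation test on log2 values (-0.40, adjusted p = 0.0110), under DESeq2 (-0.68), panel median (-1.05) and quantile scaling (-0.54), with TMM taken without HPRT1 and RPL13A (-0.44), and without DLE dog 2 (-0.54) or healthy dog 1 (-0.54). The other alternatives did not reach it. Among them were spike-in scaling (-0.09), no scaling (-0.25) and the lupus comparison with the control set as a block (-0.08). The CCLE, MLE and pyoderma dogs stood at 669, 685 and 578, each below all healthy dogs and inside the DLE range.

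HIF1A had a lowest, median and highest value of 2464, 4281 and 7263 normalised counts in DLE dogs, against 2460, 4381, 2823, 3041 and 4581 in healthy dogs 1 to 5. The groups overlapped almost fully, and only DLE dogs 3 (7263) and 5 (6673) lay above all healthy dogs. DLE dog 3 had the lowest TMM factor, 0.445, and its deposited count of 3684 lay below the DLE median of 4729. The means were 4678 ± 1713 in 7 DLE dogs and 3457 ± 960 in 5 healthy dogs (SD), and the log2 change was 0.44 ± 0.30 (SE, 95% interval -0.20 to 1.07, edgeR adjusted p = 0.210). That interval is wide, so an equal level in both groups is not shown. With 1 dog left out the change ran from 0.21 (without healthy dog 1) to 0.55 (without DLE dog 6). Scaled to the geometric mean of HPRT1 and RPL13A, HIF1A was called higher (log2 1.10, edgeR adjusted p = 0.00523), an alternative added after the data were seen. With panel median scaling its change was -0.17. The CCLE dog (2386) lay below both groups, while the MLE (4188) and pyoderma (2492) dogs lay inside both ranges.

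HSP70 had a lowest, median and highest value of 748, 2087 and 3373 normalised counts in DLE dogs, against 2652, 3827, 1509, 1639 and 2971 in healthy dogs 1 to 5. DLE dog 4, the oldest of its group, lay far below the others, whose lowest value was 1782. The highest value, in DLE dog 3, came from a deposited count of 1711 and that dog's low TMM factor of 0.445. The means were 2025 ± 771 in 7 DLE dogs and 2520 ± 965 in 5 healthy dogs (SD), and the log2 change was -0.32 ± 0.34 (SE, 95% interval -1.04 to 0.41, edgeR adjusted p = 0.408). Leaving out DLE dog 3 gave the lowest value, -0.56, and leaving out healthy dog 2 the highest, -0.11, while leaving out DLE dog 4 gave -0.17. With panel median scaling HSP70 was called lower (-0.93, adjusted p = 0.0375), and its sign turned with spike-in (0.09) and with reference gene scaling (0.34). The CCLE, MLE and pyoderma dogs stood at 1740, 1866 and 2457, inside both ranges.

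The call of each of the 4 genes, and the sign of HIF1A and HSP70, differed between scalings. A common factor per dog shifts all probes nearly alike. A gene's place relative to the panel is therefore nearly fixed under such scalings, and its steadiness there is no support. Over the 157 probes tested, the middle log2 change differed between the settings. It was -0.27 with panel median scaling, -0.16 with quantile scaling, 0.0033 with DESeq2 factors, 0.34 with TMM taken without HPRT1 and RPL13A, 0.41 with TMM, 0.50 unscaled, 0.71 with spike-in scaling and 1.05 with reference gene scaling. The quantile and DESeq2 values come from other models as well as other scalings, and limma on the TMM normalised counts gave 0.25. Relative to the median of the same setting, RPL13A lay between -1.43 and -1.15 in all 7 scalings that could be used for it and HPRT1 between -0.81 and -0.39. HSP70 lay below the median in 7 of 8 scalings (-0.73 to 0.04, the exception being quantile scaling), and HIF1A lay between 0.03 and 0.70 above it in all 8. Quantile scaling alone is not a common factor per dog. It gave -1.15 for RPL13A, -0.39 for HPRT1, 0.04 for HSP70 and 0.70 for HIF1A. In the lupus comparison with the control set as a block these relative changes were -0.02 for RPL13A, -0.03 for HPRT1, -0.36 for HSP70 and 0.25 for HIF1A. Over the whole panel, 59.8% of calls were higher in DLE dogs under TMM, against 83.0% with reference genes, 77.0% with spike-ins, 69.5% with no scaling, 50.0% by DESeq2, 44.6% after quantile scaling and 44 of 110 calls after panel median scaling.

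**Figure D3:**
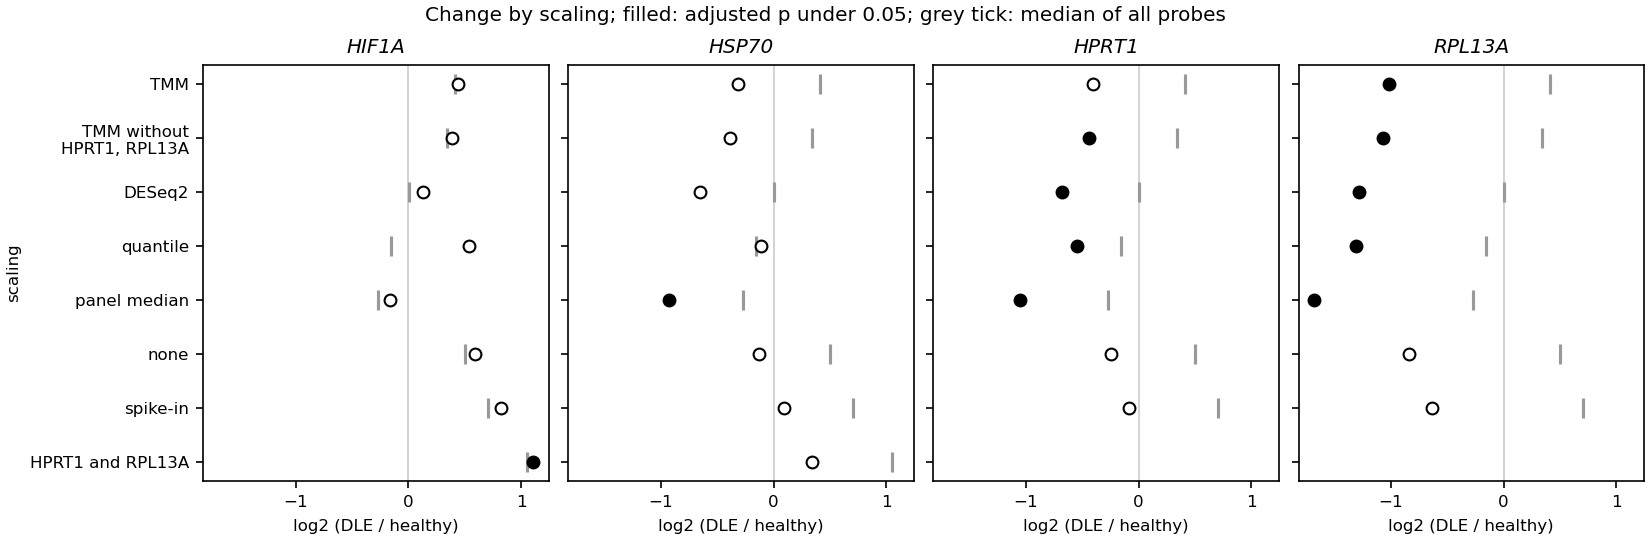
Log2 change of DLE over healthy dogs (x axis) for each gene under each scaling (rows); filled points had an adjusted p under 0.05, and the grey tick is the median change of all 157 probes. RPL13A lies left of the tick in each of its 7 rows, and HIF1A runs from -0.17 with panel median to 1.10 with reference gene scaling.

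Ratios of counts within 1 dog need no scaling, and they were compared between the groups for all 6 pairs of the 4 genes. Both HIF1A and HPRT1 were higher relative to RPL13A in DLE dogs, and HIF1A was higher relative to HPRT1. A ratio shows that its genes changed unequally and not which of them changed. For all 12720 pairs of panel probes the same exact permutation test was run over the 792 splits of 12 dogs, whose smallest two-sided p is 0.00126, and p-values were adjusted over all pairs. Of these pairs 53.2% were called, so that 3 called of the 6 is near the background and is no result about these genes as a group. None of the 6 ratios was without overlap between the groups, against 31.5% of all pairs.

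HIF1A/RPL13A ranged from 0.170 to 0.450 (median 0.302) in DLE dogs, against 0.0598, 0.201, 0.110, 0.110 and 0.117 in healthy dogs 1 to 5. In 6 of 7 DLE dogs it lay above all healthy dogs, and DLE dog 6 lay below healthy dog 2 alone. The ratio was 2.65-fold higher in DLE dogs (log2 1.40, 95% interval 0.72 to 2.08, exact permutation p = 0.00253, adjusted p = 0.00823). The MLE (0.390) and pyoderma (0.264) dogs also lay above all healthy dogs, whereas the CCLE dog (0.137) lay inside the healthy range. In the lupus comparison with the control set as a block the log2 difference was 0.25 (exact permutation within sets, adjusted p = 0.654), where 54 choices can give no p under 0.0185.

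HPRT1/RPL13A ranged from 0.0321 to 0.0601 (median 0.0391) in DLE dogs, against 0.0181, 0.0356, 0.0312, 0.0251 and 0.0265 in healthy dogs 1 to 5. In 5 of 7 DLE dogs it lay above all healthy dogs. The ratio of these reference genes was 1.53-fold higher in DLE dogs (log2 0.61, 95% interval 0.19 to 1.04, exact permutation p = 0.00758, adjusted p = 0.0182). It lay above all healthy dogs in the CCLE (0.0384), MLE (0.0638) and pyoderma (0.0613) dogs too, so in 8 of 10 lesional dogs, and within control set B the CCLE dog was 0.53 above the healthy mean on the log2 scale. In the lupus comparison with the control set as a block the difference was -0.01 (exact permutation within sets, adjusted p = 0.990), and within set A the pyoderma dog lay above 7 of the 8 lupus dogs.

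HIF1A/HPRT1 ranged from 4.79 to 11.5 (median 6.82) in DLE dogs, against 3.31, 5.64, 3.52, 4.39 and 4.41 in healthy dogs 1 to 5. The ratio was 1.73-fold higher in DLE dogs (log2 0.79, 95% interval 0.20 to 1.36, exact permutation p = 0.0164, adjusted p = 0.0335), and 5 of 7 DLE dogs lay above all healthy dogs. This call ended without DLE dog 1 (0.81) and without any 1 of healthy dogs 1 (0.71), 3 (0.73), 4 (0.81) and 5 (0.81). It also ended with group medians (0.64, exact permutation, adjusted p = 0.113) and in the lupus comparison with the control set as a block (0.26, exact permutation within sets, adjusted p = 0.638). The CCLE dog stood at 3.57 and the pyoderma dog at 4.31, both inside the healthy and below the DLE range, and the MLE dog stood at 6.11.

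The 3 ratios with HSP70 did not pass the test. HSP70/HPRT1 had a geometric mean of 3.08 in DLE dogs and 2.95 in healthy dogs (log2 0.06, 95% interval -0.69 to 0.78, exact permutation p = 0.855), and its sign turned when DLE dog 3 or 6 or healthy dog 3 or 4 was left out (-0.10 to -0.01). HIF1A/HSP70 differed by log2 0.73 (95% interval -0.07 to 1.55, exact p = 0.0694, adjusted p = 0.112) and was called without DLE dog 6 (0.90, adjusted p = 0.0285). DLE dog 4 had the highest HIF1A/HSP70 ratio, 5.69, where the remaining DLE dogs had 1.18 to 3.02 and the healthy dogs 0.928 to 1.87. HSP70/RPL13A differed by log2 0.67 (95% interval -0.10 to 1.36, exact p = 0.0821, adjusted p = 0.129) and was called without healthy dog 2 (0.96, adjusted p = 0.0231), whose ratio of 0.175 stood apart from 0.0587 to 0.0758 in the other healthy dogs. The pyoderma dog had the highest HSP70/RPL13A ratio of the 15 dogs, 0.261, above the DLE range of 0.0651 to 0.186.

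**Figure D4:**
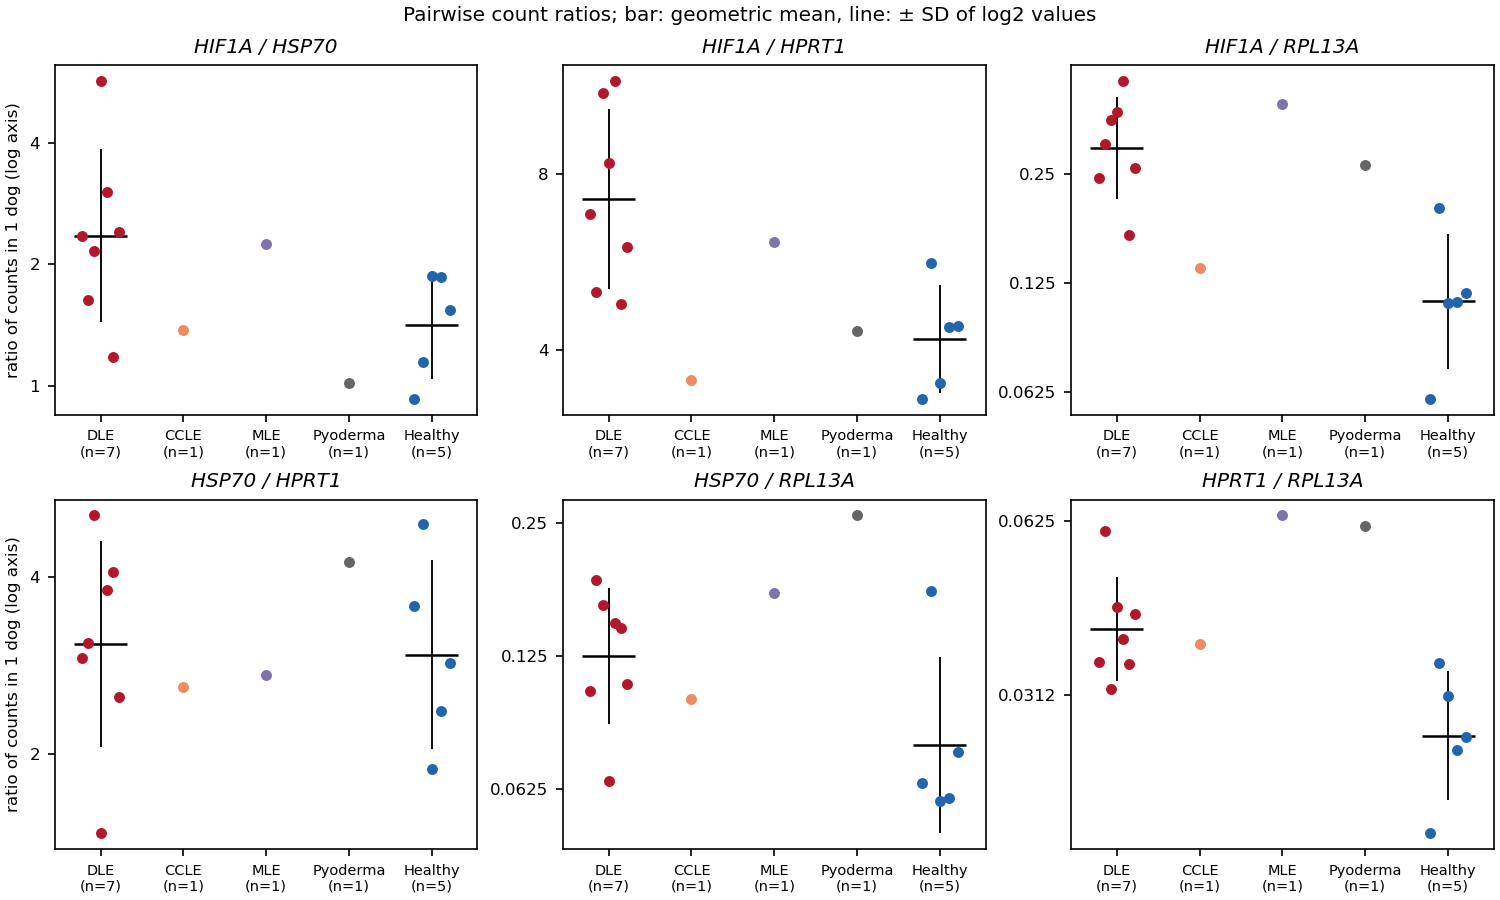
The 6 pairwise count ratios on log axes, 1 point per dog, with the geometric mean and the SD of the log2 values as bar and line in DLE (n = 7) and healthy (n = 5) dogs. For HIF1A/RPL13A 6 of 7 DLE dogs lie above all healthy dogs, and for HSP70/HPRT1 the healthy range lies inside the DLE range.

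The single dogs were set beside the groups without a test. By normalised counts the CCLE dog lay above all DLE dogs for 21.2% and below them for 15.6% of the 160 probes, the MLE dog for 16 and 28 of the 160, and the pyoderma dog for 8.75% and 21.9%. Against the healthy dogs the shares above and below were 36.9% and 35.0% for CCLE, 42.5% and 35.0% for MLE, and 41.9% and 27.5% for pyoderma. RPL13A lay below the DLE range in the MLE and pyoderma dogs, by 0.48 and 0.67 on the log2 scale from the DLE mean. HIF1A lay below the DLE range in the CCLE dog, by 0.89 from the DLE mean. In the pyoderma dog HIF1A lay 0.82 below the DLE mean, just inside the range, and HIF1A/HSP70 (1.01) lay below all DLE dogs.

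Within a group, the housekeeping pair held the steadiest ratio in DLE dogs. The SD over dogs of the log2 HPRT1/RPL13A ratio was 0.30 in DLE dogs and 0.37 in healthy dogs, against a median over all 12720 probe pairs of 1.05 and 0.78. Only 1.03% of pairs had a smaller SD in DLE dogs, and 8.53% had one in healthy dogs. HIF1A/HPRT1 was the steadiest of the 6 ratios in healthy dogs (SD 0.31) and had an SD of 0.51 in DLE dogs. HIF1A/HSP70 varied most in DLE dogs (SD 0.71, 23.1% of pairs smaller). Over all 15 dogs the SD of the HPRT1/RPL13A ratio was 0.50, wider than in either group. These spreads are descriptions, and they include counting error, which is larger for probes of low count.

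Averaged over its ratios with all other probes, HPRT1 was among the steadiest probes of the panel. Steadiness here is relative to a panel of which 61.8% of probes tested were called between DLE and healthy dogs. The rank therefore does not show an equal HPRT1 level in the 2 groups. Its mean SD was 1.17 over 15 dogs, rank 2 of 160 from the steadiest, and it ranked 3 within the DLE dogs and 9 within the healthy dogs. Among the 86 probes above the background limit in all dogs it ranked 1 over 15 dogs and 2 within each group. RPL13A ranked 38 of 160 over 15 dogs, 14 within DLE and 41 within healthy dogs. HIF1A ranked 13 over 15 dogs but 55 within DLE dogs, and HSP70 ranked 28 over 15 dogs, 77 within DLE and 97 within healthy dogs.

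**Figure D5:**
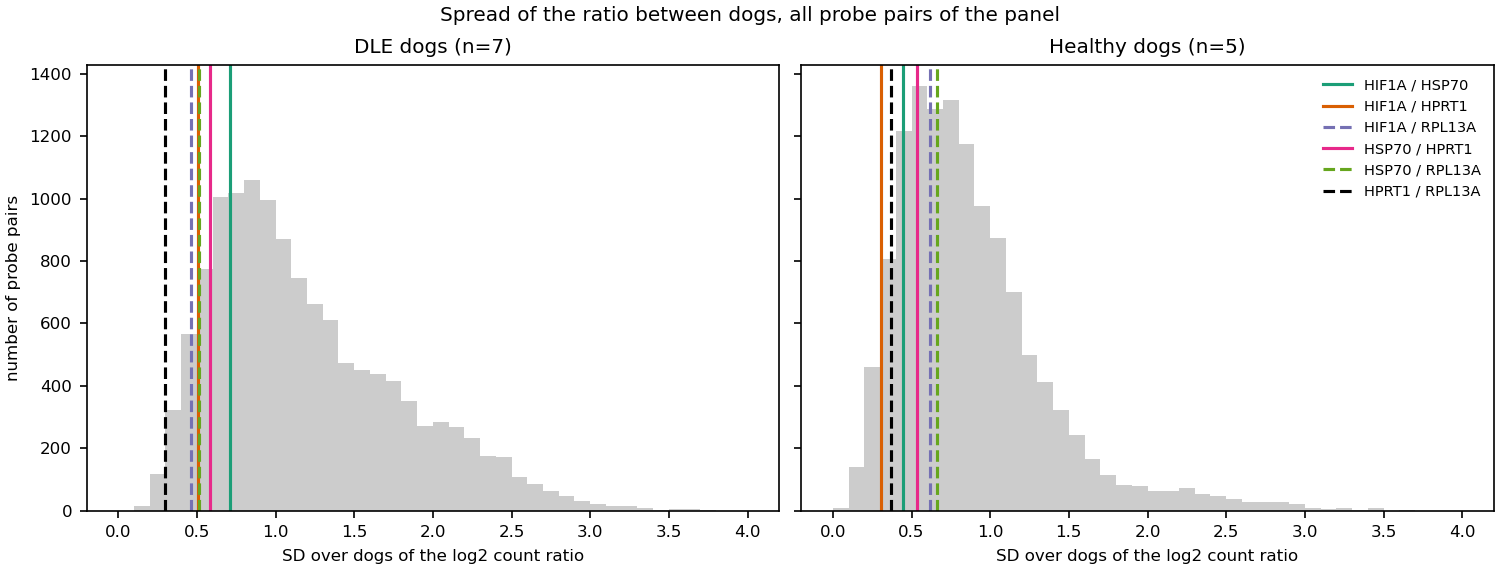
Histograms of the SD over dogs of the log2 count ratio for all 12720 probe pairs, in DLE (n = 7) and healthy (n = 5) dogs, with lines for the 6 ratios of the 4 genes. The HPRT1/RPL13A line lies at 0.30 in DLE dogs, near the lower end of the distribution, and at 0.37 in healthy dogs.

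The probes with a symbol whose level followed each gene most closely were found by the smallest SD of the log2 ratio over 15 dogs. For RPL13A these included EDA (SD 0.38), a ligand of skin appendage development, and KIT (0.43), the stem cell factor receptor of mast cells and melanocytes. EDA had normalised counts of 54.0 ± 16.2 in 7 DLE dogs and 139 ± 36.9 in 5 healthy dogs, and KIT had 294 ± 66.9 in DLE dogs and 478 ± 113 in healthy dogs (SD). Since these probes were picked for following RPL13A over the same dogs, their lower level in DLE dogs is a description and no separate result. For HPRT1 the nearest were IL10 (SD 0.41), PTGER4 (0.48), a prostaglandin receptor, and FMO1 (0.50), whose counts lay near background. For HIF1A they were SLC6A2 (0.41), the noradrenaline transporter, the chemokine CX3CL1 (0.46) and the basal keratin KRT5 (0.54), and for HSP70 they were HPRT1 (0.50), IL10 (0.56) and HIF1A (0.68).

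Few other genes of these roles were on the panel under a symbol. Of 19 written reference genes B2M, the light chain of MHC class I, was the only one matched to a probe. Since 88 of the 160 probes had no symbol, others may be among them. B2M rose 2.63-fold, with 108580 ± 17635 normalised counts in 7 DLE dogs and 41247 ± 8209 in 5 healthy dogs (SD, edgeR adjusted p = 0.000883). For B2M the lowest DLE dog (89978) exceeded the highest healthy dog (50449). Of 17 hypoxia and 17 heat shock genes written, only HIF1A and HSP70 matched a probe, and of the oxidative stress and the apoptosis genes none did. Of 5 aryl hydrocarbon genes, whose receptor shares the partner ARNT with HIF1A, CYP1B1 was measured and fell 3.69-fold (edgeR adjusted p = 0.000545).

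Markers of cell types, matched to probes by symbol or synonym only, moved between the same groups, and their part in the values above was not tested. Of 8 written T cell markers 4 matched a probe and 4 rose, where 36.9% of all probes tested rose. Their summed normalised counts were 804 to 5699 in DLE dogs and 106 to 205 in healthy dogs. The DLE sums were mostly CCL5, at 637 to 5454 in DLE dogs and 42.2 to 132 in healthy dogs. In DLE dogs CD40LG (26.6 to 98.7), FOXP3 (17.7 to 85.1) and KLRD1 (84.9 to 358) added far less. The B cell marker MS4A1, 1 of 3 written, rose, at 81.6 to 300.3 in DLE dogs and 14.2 to 21.8 in healthy dogs. Of 4 stroma markers the 2 measured, COL1A1 and CXCL12, fell, with sums of 22273 to 52352 in DLE dogs and 42367 to 143368 in healthy dogs. PPARG, 1 of 4 markers of fat and sebaceous cells, fell (78.8 to 583 in DLE dogs, 373 to 3375 in healthy dogs). Of 4 keratinocyte markers measured 1 rose (sums of 87677 to 261687 in DLE dogs and 64260 to 131878 in healthy dogs), of 4 melanocyte markers 1 fell (254 to 1130 in DLE dogs and 473 to 1198 in healthy dogs) and of 2 macrophage markers 1 rose and 1 fell (1023 to 2197 in DLE dogs and 774 to 3040 in healthy dogs). No endothelial or muscle marker matched a probe. The lowest deposited count was 1, so a count above 0 does not show detection. In healthy dogs CD40LG (8.17 to 17.6), FOXP3 (3.97 to 15.7) and MS4A1 (14.2 to 21.8) had normalised counts near background. The background limits of these dogs were 22.8 to 27.8 deposited counts.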

How the data were processed

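The deposited values are whole-number counts per probe from NanoString probes on RNA of fixed archival skin, per the labels' protocols. The sources used here name no counting software, background subtraction or scaling. The lowest of the deposited counts was 1. The 160 panel rows and 14 ERCC control rows were read for 15 dogs, and 72 probes had a symbol in a RefSeq gene table of assembly UU_Cfam_GSD_1.0, used for names alone. No sequence or coordinate is given, since the sources used here name no build.

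TMM factors were computed over the panel rows, HPRT1 and RPL13A included. filterByExpr kept 157 probes, all 4 genes among them. edgeR 4.0.16 (estimateDisp, glmQLFit, glmQLFTest; R 4.3.3) compared 7 DLE with 5 healthy dogs, two-sided and without covariates, with Benjamini-Hochberg adjustment over all 157 probes at 0.05. Normalised counts used factors over 15 dogs. Count ratios were tested by exact permutation, with intervals by inversion of that test. Alternatives used DESeq2 1.42.0, limma 3.58.1 with a pseudocount of 1 and other scalings. Simulated data with 40 of 157 probes changed gave back 29.0% of 2-fold and 87.0% of 4-fold changes in 20 runs, with 3.53% false calls. As many probes were changed up as down, and fewer than the 97 called in the data, so these shares may not carry over.

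Each labelled dog was taken as 1 replicate, and p-values measure the spread between these samples. No 2 samples of a group were duplicates (lowest chi-square per degree of freedom 162). The genes and lists were chosen with earlier results of these data known. The named genes were the 4 genes, members of the written lists that matched a probe, and the 3 nearest probes with a symbol to each gene, of which 1 is not reported here. The single dogs were compared without a test.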

Additional observations from a re-analysis of the deposited data

Results flagged for a closer look

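The normalised count of HSP70 in DLE dog 4 was 748, far from the other DLE dogs, which ran from 1782 to 3373. The gap to the nearest dog took 0.577 of the group's range on the log2 scale, against a critical value of 0.568. The ratio HSP70/RPL13A in healthy dog 2 was 0.175, far from the other healthy dogs at 0.0587 to 0.0758, a gap of 0.766 of the range against a critical value of 0.710. Both values involve HSP70. In all, 20 sets of values were looked at in this way, and chance gives such a value in about 1 of 20.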

How the results depend on the processing

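Among the alternatives run, RPL13A kept its call with each dog left out in turn (-1.14 to -0.96) but lost it with spike-in scaling (-0.64), no scaling (-0.84) and in the fit with the control set as a block (-0.075). HPRT1 was called under panel median (-1.05), DESeq2 (-0.68) and quantile scaling (-0.54), with TMM without HPRT1 and RPL13A (-0.44) and in the exact permutation test (-0.40), and ranged from -0.54 to -0.36 with 1 dog left out. It was not called with spike-in scaling (-0.088), with no scaling (-0.25) or with the control set as a block (-0.079). HIF1A turned sign with panel median scaling (-0.17) and was called with reference gene scaling (1.10, added after seeing the data), and ranged from 0.21 to 0.55 with 1 dog left out. HSP70 turned sign with spike-in (0.093) and reference gene scaling (0.34) and was called with panel median scaling (-0.93), and ranged from -0.56 to -0.11 with 1 dog left out. With group medians HIF1A/HPRT1 (0.64), HIF1A/RPL13A (1.45) and HPRT1/RPL13A (0.56) were no longer called. The fit with the control set as a block also changed the groups, to 9 lupus dogs against the pyoderma and healthy dogs. In it 40 probes were called, against 97 for DLE and healthy dogs, HIF1A/HPRT1 (0.26) and HIF1A/RPL13A (0.25) lost their calls, and the signs of HSP70/HPRT1 (-0.34), HSP70/RPL13A (-0.35) and HPRT1/RPL13A (-0.0089) turned. With 1 dog left out the ratios ranged from 0.52 to 0.90 for HIF1A/HSP70, 0.68 to 0.90 for HIF1A/HPRT1, -0.10 to 0.25 for HSP70/HPRT1 and 0.56 to 0.96 for HSP70/RPL13A. The causes were not tested.

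The labels number DLE and healthy dogs alike from 1 to 5, and no label says that a number marks a shared dog or batch. Deviations of same-numbered dogs correlated between -0.14 and 0.17, over 0.1 in 3 of 5 pairs, and 6 of 10 dogs correlated best with their own number. These 10 outcomes rest on the same correlations and are not independent. They are at most a weak hint of pairing, from the data and not from the design, and pairing was not tested. Since not every pair was over 0.1, the numbers were not taken to pair dogs. A fit with the replicate number as a block used only the DLE and healthy dogs numbered 1 to 5. The effects of the block and of the dogs left out cannot be told apart. In that fit 87 probes were called and RPL13A stayed called (-1.03). HIF1A/HPRT1 (0.97), HIF1A/RPL13A (1.60) and HPRT1/RPL13A (0.63) could not be called, since 32 sign flips allow no p under 0.0625. Counts of these 4 probes were at least 17.0 times the background limit in every dog. Whether the lower panel sums of most healthy dogs bear on the changes between groups was not tested.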

Other observations

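The relation of the 6 ratios to age within the 7 DLE dogs was looked at after their values were seen, and it did not pass the adjustment. HSP70/HPRT1 was 5.09 in the dog of 1 year and 1.47 in the dog of 13 years, with 3.81, 4.08, 2.50, 2.91 and 3.09 in the dogs of 3, 5, 6, 7 and 9 years. Pearson's r was -0.91 (exact permutation p = 0.00655, adjusted over all 12720 probe pairs 0.533) and Spearman's rho -0.82 (exact p = 0.0341, adjusted 0.785), n = 7. Without the dogs of 13 and 1 years, the farthest from the median age, r was -0.54 over 5 dogs, so the relation rests on those dogs in part. HPRT1/RPL13A had a Spearman's rho of 0.79 with age (exact permutation p = 0.0480, adjusted 0.796) and an r of 0.63 (exact p = 0.128, adjusted 0.671), and r was 0.67 without the same 2 dogs. For the other 4 ratios r lay between -0.66 and 0.47, with exact p-values of 0.106 or more. Of all probe pairs 8.70% had an unadjusted exact p under 0.05 for r. The CCLE, MLE and pyoderma dogs, of 7, 6 and 9 years, had HSP70/HPRT1 ratios of 2.60, 2.72 and 4.25.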
